A study of Arabidopsis thaliana with 8 samples.

Results

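The first steps of nitrate assimilation were followed through 3 Arabidopsis genes, the nitrate reductase genes NIA1 (AT1G77760) and NIA2 (AT1G37130) and the nitrite reductase gene NIR1 (AT2G15620). Nitrate reductase is a cytosolic enzyme that reduces nitrate to nitrite and carries a molybdenum cofactor, haem and flavin. Nitrite reductase, a plastid enzyme with a sirohaem group, takes electrons from ferredoxin and reduces nitrite to ammonium, which is then built into amino acids. Of the paralogous nitrate reductases of Arabidopsis, NIA2 is known to supply most of the activity in leaves, and transcripts of all 3 genes are known to be induced by nitrate and by light. Each gene was represented by 1 named probe, so that they were 3 of 37685 probes and 3 of the 7418 genes with a named probe. NIA1 and NIA2 lie on chromosome 1 and NIR1 on chromosome 2, according to their locus identifiers. The annotation of the array used here names none of these probes, which are A_84_P15248 for NIA1, A_84_P16255 for NIA2 and A_84_P11566 for NIR1. They are known only through the study's list of genes called at 8 weeks, and they were chosen for study with their 8-week values known. Probe sequences were not used here, and whether a probe of one nitrate reductase gene also reads transcripts of its paralog was not tested. Those values, NIA1 being lower and the other two higher, are therefore given as a description without a test.

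The samples compared SND2-OV(A), a homozygous T4 line of the Col-0 ecotype that overexpresses the NAC transcription factor gene SND2 from a doubled cauliflower mosaic virus promoter, which is active in most tissues, with wild type Col-0 plants, at 8 and at 4 weeks of age. RNA came from the lower inflorescence stem of plants pooled within each of 3 biological replicates per age. By the paper, the same length of lower stem was extracted at both ages, but the 4-week stems were only a little taller than that. The 4-week RNA thus came from most of a young stem, and the 8-week RNA from the lower part of an older stem. More plants were pooled per replicate at 4 weeks. Each array carried the line in one dye and the wild type of the same age in the other. The line stands for 1 transgenic line, selected by the study because it showed upregulation of CesA8. Plants of both genotypes were fertilized weekly, and the nitrate supply is not given in the sources used here. For the 8-week plants the methods state hygromycin selection of T4 seedlings and do not say how wild type seedlings were raised meanwhile. The labels state hygromycin selection at both ages, whereas the methods state none for the 4-week plants. If only the line was selected at an age, early growth on hygromycin and genotype cannot be told apart in the ratios of that age. According to the labels, replicate 1 took up 2 arrays on which the dyes were exchanged, whereas replicates 2 and 3 had 1 array each, on which the line was labelled with Cy3 for replicate 2 and with Cy5 for replicate 3, so that there were 4 arrays per age. A value above 0 on the log2 scale means more transcript in SND2-OV(A), and a value below 0 means more in the wild type. Because the RNA came from whole stem pieces, fewer cells of a type and less RNA per cell cannot be told apart.

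The overexpressed gene itself was high on every array, with SND2 (AT4G28500) log2 ratios from 5.23 to 7.60 at 8 weeks and from 2.75 to 3.37 at 4 weeks. The study describes the signal of this probe as saturated at 8 weeks, so that the true ratios may be larger. Array medians ranged from -0.112 to 0.0626, and ratios were spread most widely on the Cy5 array of replicate 1 at 8 weeks (SD over probes 1.01, against 0.308 to 0.597 for the others). Across probes, arrays of different replicates correlated with r from -0.114 to 0.283 at 8 weeks and from -0.218 to 0.134 at 4 weeks. The arrays of replicate 1, on which the dyes were exchanged, correlated with r = 0.0879 at 8 weeks and 0.0623 at 4 weeks. In limma 0 of 37685 probes (0%) had an adjusted p under 0.05 with a fold change over 1.5 at either age, while 1319 (3.5%) at 8 weeks and 374 (0.992%) at 4 weeks had an unadjusted p under 0.05. SND2 itself was thus not called. In limma its adjusted p was 0.41 at 4 weeks (unadjusted p = 3.3e-05), and the smallest adjusted p of any probe at 8 weeks was 0.44. A missing call therefore does not show a missing change. The study's own list of called genes at 8 weeks holds 223 probes. The arrays give ratios only, so neither the level of a transcript nor the labelled tissue could be checked against marker levels.

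In 8-week-old stems, NIA1 was lower in SND2-OV(A) on all 4 arrays. Its log2 ratios were -0.80 and -0.999 on the Cy3 and Cy5 arrays of replicate 1, -0.35 on the array of replicate 2 and -1.16 on that of replicate 3. Replicate 2 was the nearest to the wild type and replicate 3 the farthest from it. The mean over replicates was -0.80 ± 0.41 (SD, n = 3), a transcript level in the line of 0.573 times that of the wild type.

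NIA2, the paralog, stood on the other side of the wild type at 8 weeks. Its log2 ratios were 0.58 and 0.40 on the Cy3 and Cy5 arrays of replicate 1, 0.47 in replicate 2 and 1.02 in replicate 3. Replicates 1 and 2 were close to each other and replicate 3 was higher. The mean was 0.66 ± 0.31 (SD, n = 3), which is a 1.58-fold higher level in the line.

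NIR1 was higher in the line on every 8-week array, with values that fell into a high and a low pair. Its log2 ratios were 0.98 and 0.19 on the Cy3 and Cy5 arrays of replicate 1, 0.21 in replicate 2 and 1.08 in replicate 3. The same RNA of replicate 1 thus gave a ratio near that of replicate 3 in one dye orientation and one near that of replicate 2 in the other. This gap of 0.79 in NIR1 compares with 0.20 for NIA1, 0.18 for NIA2 and a median gap of 0.248 over all probes. The mean of NIR1 was 0.63 ± 0.44 (SD, n = 3), a 1.54-fold higher level in the line. With the Cy3 array alone for replicate 1, that is without the widely spread array, the means were -0.77 for NIA1, 0.69 for NIA2 and 0.76 for NIR1. With the Cy5 array alone, the NIR1 mean was 0.50.

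Of the 3 replicates at 8 weeks, replicate 3 lay farthest from the wild type for each of the 3 genes. It was also the highest replicate for 46.2% of all probes and the lowest for 31.2%. A mean over 1.5-fold higher was found for 172 of 37685 probes (0.456%) and a mean over 1.5-fold lower for 1041 (2.76%). One sign in all 3 replicates was found for 2914 probes (7.73%) that were higher and 6891 (18.3%) that were lower. As the genes were taken from a list with a fold change over 1.5, nothing is read from these shares. On the log2 scale that threshold is 0.585, and NIR1 at 0.63 and NIA2 at 0.66 lay just above it, whereas NIA1 was farther out. The log2 ratio left after removing replicate 3 was -0.63 for NIA1, 0.48 for NIA2 and 0.40 for NIR1, so that both genes with higher levels were then under 1.5-fold. Without replicate 1, NIA2 was at 0.75 and without replicate 2 at 0.76, and NIR1 at 0.65 and 0.83.

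**Figure D1:**
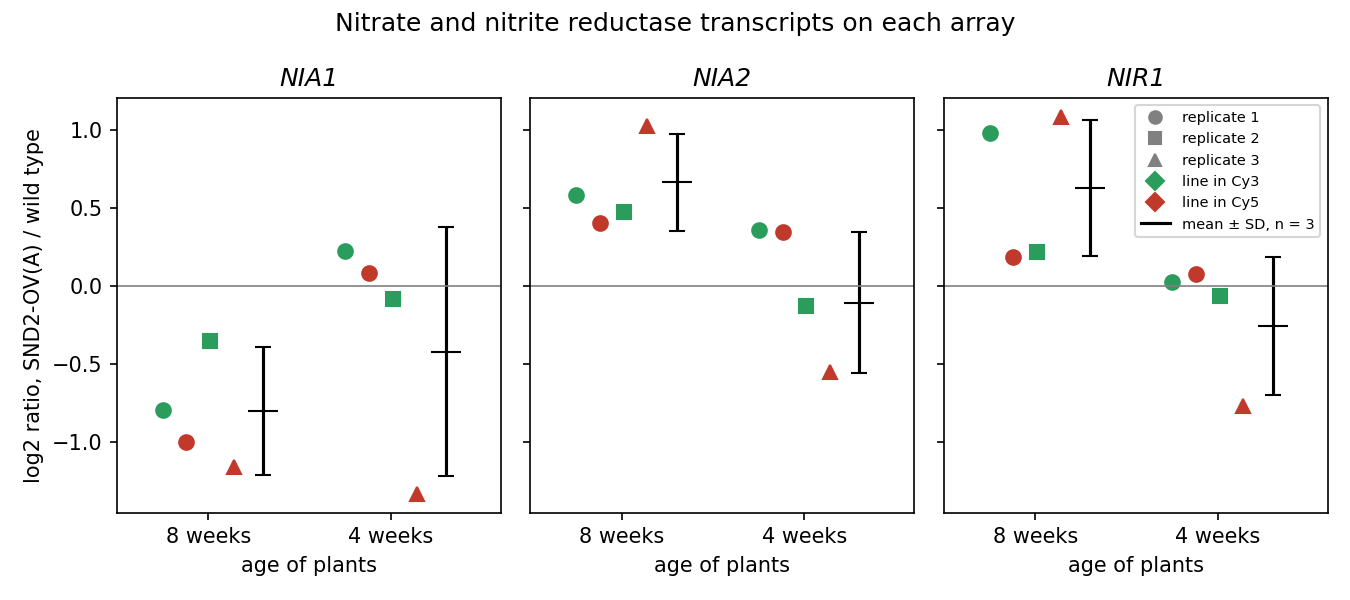
Ratio of the line over the wild type (log2, vertical axis) of NIA1, NIA2 and NIR1 on each of the 4 arrays at 8 weeks and at 4 weeks, with the shape of a point for the replicate, its colour for the dye of the line, and bars for the mean ± SD over 3 replicates. NIA1 lies below 0 and NIA2 and NIR1 lie above 0 on all 8-week arrays, while at 4 weeks the array of replicate 3 lies below the others for each gene.

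In 4-week-old stems NIA1 and NIA2 lay on the same side of the wild type on each of the 4 arrays. NIA1 had log2 ratios of 0.22 and 0.08 on the Cy3 and Cy5 arrays of replicate 1, -0.08 in replicate 2 and -1.33 in replicate 3. NIA1 in replicates 1 and 2 was near the wild type, and in replicate 3 its level was 0.397 times that of the wild type. Its mean was -0.42 ± 0.80 (SD, n = 3), less than the spread between replicates, with an adjusted p = 1.00 in limma (unadjusted p = 0.273).

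NIA2 at 4 weeks had log2 ratios of 0.36 and 0.35 on the Cy3 and Cy5 arrays of replicate 1, -0.13 in replicate 2 and -0.55 in replicate 3. Its replicates lay on both sides of the wild type. The mean was -0.11 ± 0.45 (SD, n = 3), with an adjusted p = 1.00 in limma (unadjusted p = 0.622). Averaging the 4 NIA2 arrays without first combining the pair of replicate 1 gave 0.0058, which has the opposite sign.

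NIR1 at 4 weeks had log2 ratios of 0.02 and 0.08 on the Cy3 and Cy5 arrays of replicate 1, -0.06 in replicate 2 and -0.77 in replicate 3. The first 3 of these arrays were within 0.1 of the wild type and the last was well below it. The mean of NIR1 was -0.26 ± 0.44 (SD, n = 3), with an adjusted p = 1.00 in limma (unadjusted p = 0.267). A p of this size does not show that the genotypes had equal levels, given a design of 3 replicates. None of the 3 genes had a 4-week mean over 1.5-fold from the wild type, as 1.05% of probes had upwards and 1.52% downwards, and none had one sign in all 3 replicates, as 8.91% of probes had above and 7.98% below the wild type.

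The 4-week means of NIA1 and NIR1 rested mainly on replicate 3, whereas that of NIA2 depended as much on replicate 1. Without replicate 1, NIA1 stood at -0.71, NIA2 at -0.34 and NIR1 at -0.41. When replicate 3 was left out, NIA1 stood at 0.0351, NIA2 at 0.11 and NIR1 at -0.0059. All 3 genes were lowest in that replicate, as were 22.7% of all probes (8549 of 37685). On its array 14 probes had a log2 ratio under that of NIA1, and 0.655% of probes lay under NIA2 and 0.194% under NIR1. This array was otherwise shifted the other way, with 5.37% of probes above a log2 ratio of 1 and 0.0929% below -1. It carried the line in Cy5. In replicate 1 at 4 weeks, where the same RNA was measured in both orientations, exchanging the dyes moved NIA1 by 0.14, NIA2 by 0.0098 and NIR1 by 0.06, against a median of 0.262 over all probes. Replicate 3 had no array in the other orientation, so dye and replicate cannot be told apart there.

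The arrays differed in the spread and the shift of their ratios, so each gene was also ranked among the probes of its array. At 8 weeks NIA1 stood between percentiles 0.241 and 12.7 of the probes on an array, NIA2 between 95.9 and 99.0, and NIR1 between 80.6 and 99.7. At 4 weeks NIA2 was at percentile 95.0 and 89.4 on the arrays of replicate 1, at 37.6 in replicate 2 and at 0.658 in replicate 3. NIA1 took percentiles 88.2 and 60.3, 42.6 and 0.0398 on the same arrays, and NIR1 64.4, 59.1, 45.2 and 0.196.

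**Figure D2:**
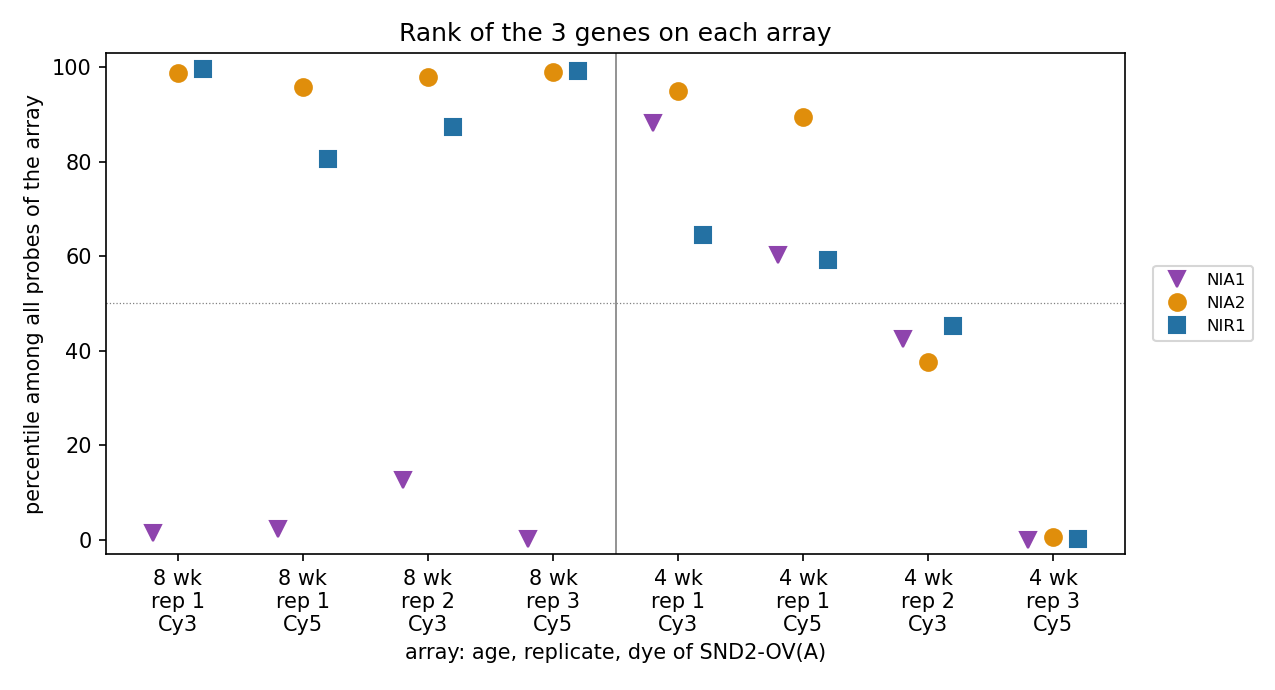
Percentile of the log2 ratio of each gene among the 37685 probes of an array (vertical axis, 0 is the lowest) for the 8 arrays, given by age, replicate and dye of the line. At 8 weeks NIA1 lies at or under percentile 12.7 and the other genes at or above 80.6, whereas on the 4-week array of replicate 3 all 3 genes lie under percentile 1.

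The contrast between the paralogs was measured within each array. At 8 weeks the log2 ratio of NIA2 minus that of NIA1 was 1.38 and 1.40 on the arrays of replicate 1, 0.83 in replicate 2 and 2.18 in replicate 3. The pair of replicate 1 agreed within 0.1, which is closer than either gene's own values were between dyes. Over the replicates the difference was 1.47 ± 0.68 (SD, n = 3), so that the ratio of the line to the wild type was 2.76 times larger for NIA2 than for NIA1. At 4 weeks the same difference was 0.13 and 0.26 in replicate 1, -0.04 in replicate 2 and 0.78 in replicate 3, with a mean of 0.31 ± 0.42. An exact two-sided permutation test that flips the signs of the 3 replicates gave p = 0.5 at 4 weeks, where the smallest p the design allows is 0.25. The difference was above 0 in 2 of the 3 replicates at 4 weeks, and the size of the 4-week mean came mainly from replicate 3, without which the difference was 0.0771. That a probe stands above another shows unequal change between the genotypes and says nothing of which transcript is the more abundant.

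NIR1 was set against both nitrate reductase genes in the same way, where the 8-week order was fixed by the choice of the genes. The log2 ratios of NIA2 and NIR1, the second subtracted from the first, differed by 0.04 ± 0.19 at 8 weeks and by 0.15 ± 0.19 at 4 weeks (SD, n = 3 each). On single arrays they were between 0.0600 and 0.39 apart. NIR1 minus NIA1 was 1.43 ± 0.84 at 8 weeks and 0.16 ± 0.36 at 4 weeks. At 4 weeks NIR1 was thus about as far from NIA1 as from NIA2 on average, and it was nearer to NIA1 on 3 of the 4 arrays.

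**Figure D3:**
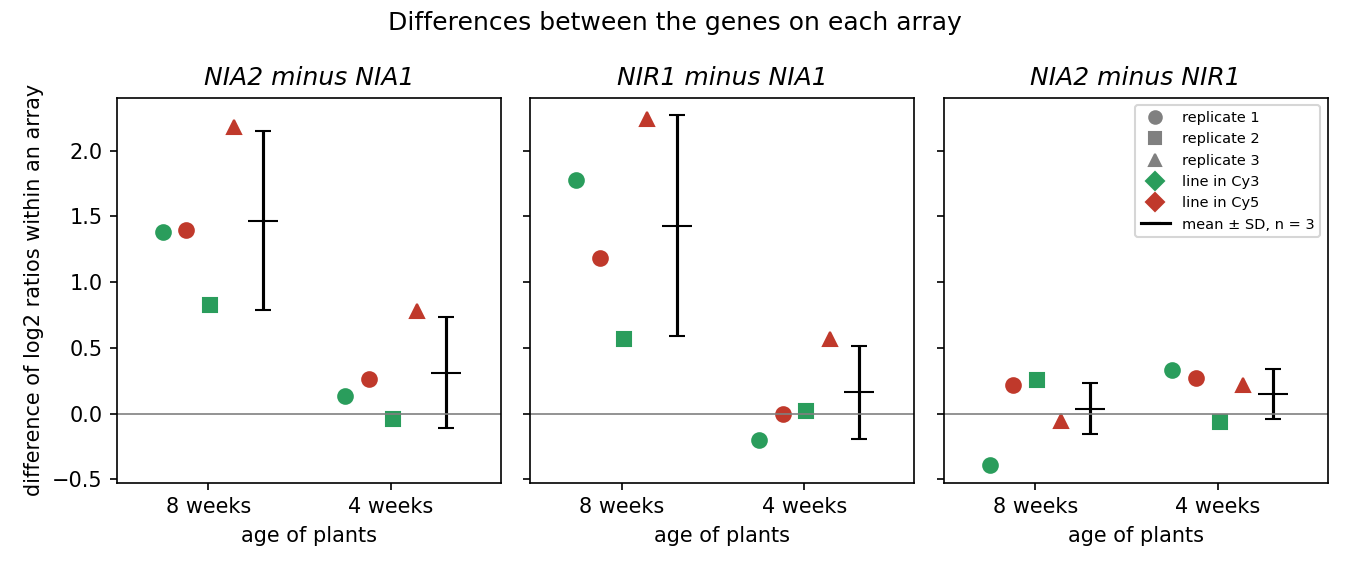
Difference between the log2 ratios of 2 genes on the same array (vertical axis) at 8 and at 4 weeks, with the shape of a point for the replicate, its colour for the dye of the line, and bars for the mean ± SD over 3 replicates. NIA2 minus NIA1 averages 1.47 at 8 weeks and 0.31 at 4 weeks, and NIA2 minus NIR1 stays within 0.39 of 0 on every array.

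Set against 4 weeks, the log2 ratio at 8 weeks was higher for NIA2 and NIR1 and overlapped for NIA1. NIA2 replicates lay between 0.47 and 1.02 at 8 weeks and between -0.55 and 0.35 at 4 weeks, a difference of 0.77 ± 0.28 (SE). NIR1 replicates lay between 0.21 and 1.08 at 8 weeks and between -0.77 and 0.05 at 4 weeks, a difference of 0.89 ± 0.31 (SE). All 8-week replicates were above all 4-week replicates for 803 of 37685 probes (2.13%) and below them for 4.36%, shares from which nothing is read, because the 8-week values chose these genes. For NIA1 the 8-week replicates, from -1.16 to -0.35, fell within the 4-week range of -1.33 to 0.15, and the difference was -0.38 ± 0.42 (SE). These standard errors came from a limma fit of the 6 replicate ratios, which draws the variance of each probe towards that of all probes. They can be smaller than a gene's own replicates would give. For NIA1, 0.42 was under the standard error of its 4-week mean alone, which was 0.46. This NIA1 difference depended on single replicates, since it was -0.10 without replicate 1 of the 4-week plants and -0.84 without replicate 3, -0.21 without replicate 2 of the 4-week plants, and -0.61 and -0.21 without replicates 2 and 3 of the 8-week plants. Plants of the 2 ages may also have differed in selection, since the methods state hygromycin selection for the 8-week plants only, whereas the labels state it for both ages. The share of the stem sampled and the number of plants per pool differed between the ages as well. Age cannot be told apart from these in the differences.

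Of 108 other genes of nitrate use, in 7 lists, only 13 had a probe with a name. None of 16 genes of ammonium assimilation, of 10 for the molybdenum and sirohaem cofactors or of 12 for the 14-3-3 proteins that bind and inactivate phosphorylated nitrate reductase was among them, and these were not analysed here. Of the 13, limma called 0 at an adjusted p under 0.05 at either age, and 5 at 8 weeks and 0 at 4 weeks had an unadjusted p under 0.05, against 3.5% and 0.992% of all probes. Of these 5, HHO3, HHO2, LBD39 and AHB2 are in the study's own list of called genes and PGD3 is not, so nothing is read from the count. At 8 weeks 10 of the 13 had a mean above 0 and 3 below 0, with a median log2 ratio of 0.24, against -0.00735 for all 7234 genes named by the annotation. At 4 weeks 7 were above 0 and 6 below, with a median of 0.01, against 0.00718. The 7 genes that the annotation names had a median of 0.13 at 8 weeks and 0.03 at 4 weeks. HHO2 is among these 7, so they too are partly chosen by the study's list. The other 6 are named only because the study called them.

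Nitrate transporter genes had no common direction. Of 22 genes, 3 were measured, and at 8 weeks the highest was NPF3.1 (AT1G68570), a transporter of the NRT1/PTR family, at 0.13 ± 0.26, and the lowest NRT2.5 (AT1G12940), a high-affinity nitrate transporter, at -0.31 ± 0.65 (SD, n = 3 each). NRT2.5 had -1.06 in replicate 3 at 8 weeks, against 0.03 and 0.11 in replicates 1 and 2. At 4 weeks NRT1.3 (AT3G21670), of the same family as NPF3.1, was the highest at 0.06 ± 0.27 and NRT2.5 the lowest at -0.12 ± 0.27. None of the 3 transporters had one sign in all replicates at either age.

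Both measured genes of 10 for the electron supply encode phosphogluconate dehydrogenases, which provide NADPH. PGD3 (AT5G41670) had 0.25, 0.25 and 0.24 in the 3 replicates at 8 weeks, the most even values among the 13 genes, with an adjusted p = 0.99 in limma (unadjusted p = 0.0364). PGD1 (AT1G64190) had 0.13 ± 0.24 at 8 weeks (SD, n = 3). At 4 weeks PGD3 was at 0.03 ± 0.10 and PGD1 at 0.01 ± 0.12.

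The largest 8-week ratio among the 13 genes belonged to a regulator of the nitrate response. Of 34 regulators 7 were measured, and 5 of them were over 1.5-fold higher at 8 weeks, all 5 from the study's own list of called genes, so that their direction is no independent evidence. BT5 (AT4G37610), a BTB and TAZ domain protein, had 1.14, -0.21 and 3.21 in replicates 1 to 3, and LBD37 (AT5G67420), a repressor of nitrate-responsive genes, had 0.94, -0.03 and 1.82. Both were near or below the wild type in replicate 2. The related repressor LBD39 (AT4G37540) was the most even of these 5, with 0.47, 0.69 and 0.85. The GARP-type repressors HHO3 (AT1G25550) and HHO2 (AT1G68670), which are induced by nitrate, had means of 0.79 ± 0.60 and 0.60 ± 0.40 (SD, n = 3 each). NRG2 (AT3G60320), a positive regulator named by the annotation alone, was at -0.02 ± 0.16, and BT2 (AT3G48360), known to repress nitrate uptake genes, at 0.01 ± 0.06.

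At 4 weeks the same regulators had no common direction. LBD39 was the highest at 0.25 ± 0.44 and BT2 the lowest at -0.76 ± 1.12 (SD, n = 3 each), where BT2 had -2.05 in replicate 2 and -0.04 and -0.18 in replicates 1 and 3. BT2 has its name from the study's list at 4 weeks. HHO3 was at -0.26 ± 0.34, HHO2 at -0.03 ± 0.29, LBD37 at -0.07 ± 0.27 and BT5 at -0.02 ± 0.69. In replicate 3 at 4 weeks, where the reductases were lowest, HHO3 stood at -0.30, HHO2 at -0.22, LBD37 at -0.27 and BT2 at -0.18, while LBD39 stood at 0.22 and BT5 and NRG2 at 0.10 each. HHO3 was lower still in replicate 2, at -0.58.

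AHB2 (AT3G10520), a non-symbiotic haemoglobin of a family that removes nitric oxide, was the only measured gene of 4 for nitric oxide turnover. It had log2 ratios of 0.45, 1.18 and 0.77 at 8 weeks and of 0.99, 0.10 and -0.26 at 4 weeks. Its 8-week mean was 0.80 ± 0.37 and its 4-week mean 0.28 ± 0.64 (SD, n = 3 each), and it too is named only through the list of called genes at 8 weeks.

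**Figure D4:**
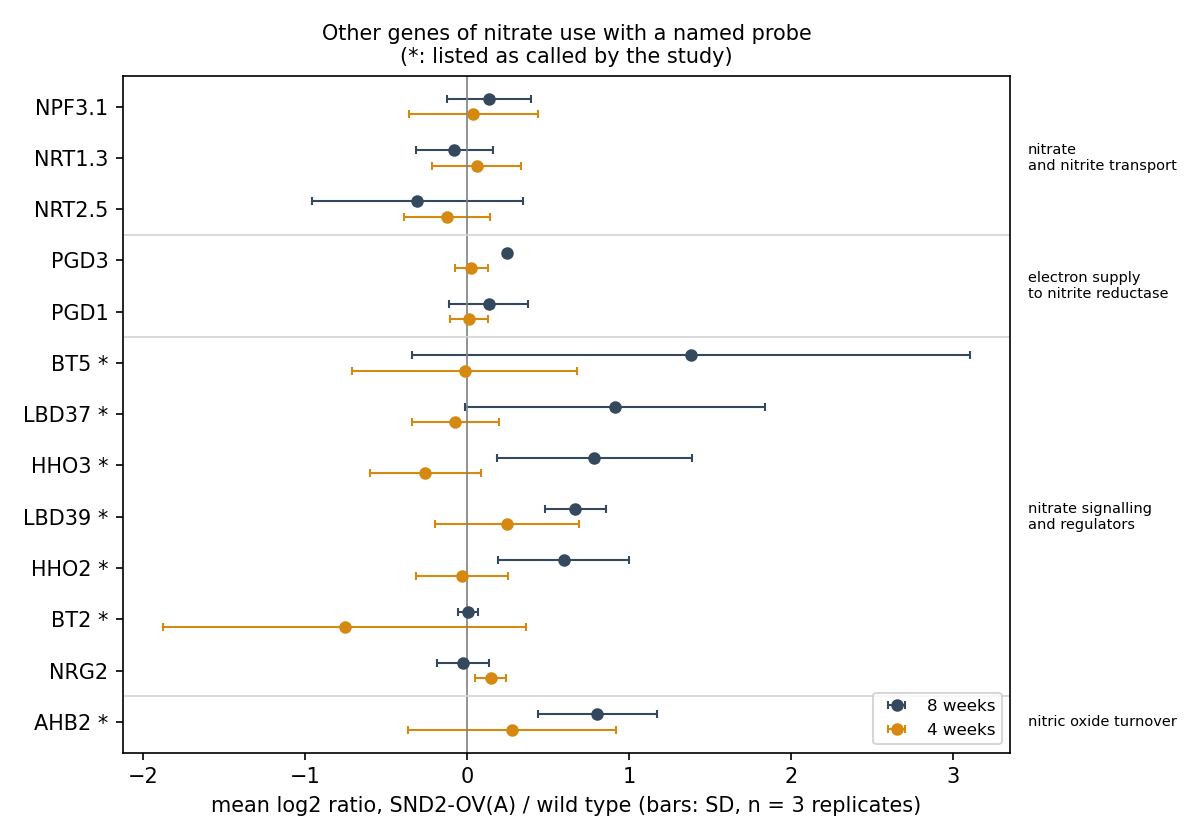
Mean ratio of the line over the wild type (log2, horizontal axis, bars are the SD over 3 replicates) at 8 and at 4 weeks for the 13 measured genes of nitrate use besides the reductases, grouped by role. Asterisks mark genes that the study lists as called, and these include all 6 genes over 1.5-fold higher at 8 weeks, such as BT5 at 1.38 and AHB2 at 0.80.

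Markers of xylem and fibres were also higher in the line at 8 weeks. Of 11 such markers 7 were measured, all named through the list of called genes, and 7 of 7 were higher in all 3 replicates, from 0.67 for LAC17, a laccase gene of lignin formation, to 0.88 for CESA4, a cellulose synthase gene of secondary walls. As that list was made from these samples, this direction is no independent evidence. Of all probes, 7.73% were higher in all 3 replicates. In replicate 2 the markers lay between 0.0032 for CESA8 and 0.44 for LAC4, so some were at the level of the wild type there. The SD over replicates of the markers was from 0.33 for LAC4 to 1.07 for FLA12. The median of the markers was 0.56, 0.09 and 1.59 in replicates 1 to 3, against 0.58, 0.21 and 1.08 for NIR1 and 0.49, 0.47 and 1.02 for NIA2. Replicate 3 was the highest for 46.2% of all probes, and the markers and reductase genes come from the same list. Nothing is therefore read from the order of the replicates. At 4 weeks the marker means lay between -0.03 for FLA12 and 0.13 for LAC4. Markers of green tissue and of phloem had no named probe. Of 11 clock genes, whose products time the daily rhythm of nitrate reductase transcripts, only GI (AT1G22770) was measured, at -0.11 ± 0.28 at 8 weeks and -0.05 ± 0.12 at 4 weeks (SD, n = 3 each). By the methods, stems were collected on the same day within a morning window, and the order of the genotypes within it is not given. The part of tissue makeup or of time of day in the ratios of the 3 genes was not tested.

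Among the 7418 named genes, those nearest to each reductase gene were taken by the root mean square difference of the log2 ratio over the 6 replicate values, which share dyes and arrays. The gene nearest to NIR1 was the glutaredoxin family gene AT4G15690 at 0.173, followed by NIA2 at 0.191, the glutaredoxin family gene AT4G15700 at 0.240, AT1G35710 at 0.254 and AFP1 at 0.282. The nearest to NIA2 was AT4G15700 at 0.188, followed by NIR1 at 0.191, AT4G15690 at 0.196, the arabinogalactan protein gene FLA2 at 0.202 and AT3G13275 at 0.204. The 8-week values that chose NIA2 and NIR1 enter this distance, and AT4G15690, AT4G15700, FLA2 and AFP1 are in the same list of called genes, so that nearness among these genes is in large part fixed by that choice and nothing is read from it. No named gene came as near to NIA1, for which BAG2 at 0.353, MLP165 at 0.378, the glutathione transferase gene GSTF3 at 0.455, AT2G45460 at 0.468 and AT5G38200 at 0.479 were the first 5. NIA2 was 1.16 away from NIA1, with 6868 genes closer to it. Of the 5 genes nearest to NIA1, GSTF3, AT2G45460 and AT5G38200 are named by the annotation without being in the list of called genes.

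The genes next to NIA1 on its chromosome did not share its ratio at 8 weeks. Of the 3 protein-coding genes on each side of it, 3 in all had a named probe, and these stood at 0.03 ± 0.30 (AT1G77750), -0.10 ± 0.14 (AT1G77770) and -0.05 ± 0.16 (AT1G77780) (SD, n = 3 each). Near NIR1 only AT2G15640 was measured, at -0.02 ± 0.09 at 8 weeks.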

How the data were processed

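Stem RNA of the overexpression line and of the wild type was compared on 8 Agilent Arabidopsis arrays with 2 colours, 4 per age. The authors scanned the arrays with a GenePix instrument, used GenePix Pro for feature extraction and limma in R for normalization. The deposited log2 values give the ratio of the line over the wild type for 37685 probes, without missing values. Their direction was checked on the SND2 probe, which is above 0 on all 8 arrays whatever the dye. Background correction and within-array normalization are not given in the sources used here. Since the files hold no intensities, signal over background is unknown and the number of arrays limits the precision.

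The labels gave the age, the replicate and the dye orientation of an array. The dye-swapped arrays of replicate 1 were averaged, and the 3 ratios of every probe entered lmFit and eBayes of limma 3.58.1 in R 4.3.3, with adjustment by Benjamini-Hochberg over all probes. No probe was filtered. A probe was called at an adjusted p under 0.05 if it also changed over 1.5-fold. By the methods, replicates were different pools of plants. The annotation named 7440 probes, and 7628 were named once the gene column of the study's lists of called genes was matched by feature number; the fold changes and p-values in those lists were not used. Of 63 probes with both names, 61 had the same locus. Probes of a gene were averaged for gene lists. A gene was named in the text if it belonged to the 3 genes, was the highest or lowest of its list at an age, was a regulator in those lists or was among the 5 nearest patterns. The genes next to NIA1 and NIR1 and the glutaredoxin genes were added after their values were seen. Gene order came from the RefSeq annotation of assembly TAIR10.1. The 3 genes and the lists were chosen with earlier results of these data known. Alternatives changed the handling of the dye pair, dye term, centring, scaling, shared spread, thresholds and replicates. The fit was also run on simulated independent noise with some probes shifted. That simulation held no dye effect or array shift, so nothing about the calls in these data is read from it. Tables were handled with pandas 2.3.3 and numpy 2.4.6, permutations and plots with Python 3.11.15 and matplotlib 3.10.9. RT-qPCR and histology were not analysed here.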

Additional observations from a re-analysis of the deposited data

How the results depend on the processing

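Of 145 alternative values, 135 kept their direction and side of the threshold, or moved by less than the spread between replicates, and 4 reversed. Leaving out 1 of 3 replicates cannot move a mean by that spread, so nothing is read from the tally for 8-week ratios or age differences. Ratios that fell under 1.5-fold at 8 weeks also count as kept. These were NIA2 at 0.48 and NIR1 at 0.40 without replicate 3, and NIR1 at 0.50 with the Cy5 array alone for replicate 1. The reversals were those of NIA1 at 4 weeks without replicate 3 (0.0351) and of NIA2 at 4 weeks without replicate 3 (0.11), with a dye term (0.0058) and with all 4 arrays as separate values (0.0058), and no adjusted p at 4 weeks was under 0.05 in any of them. The dye term and the separate arrays give one log2 ratio by construction, because each age has as many Cy3 as Cy5 arrays. They are not separate checks. Fitting both ages together or with a robust shared spread likewise cannot change a log2 ratio. Leaving out a replicate at a time moved the 8-week log2 ratio of NIA1 between -1.03 and -0.63, of NIA2 between 0.48 and 0.76 and of NIR1 between 0.40 and 0.83, and the 4-week ratios between -0.71 and 0.0351, -0.34 and 0.11, and -0.41 and -0.0059. NIA2 minus NIA1 then ranged from 1.11 to 1.79 at 8 weeks and from 0.0771 to 0.49 at 4 weeks.

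Counts of called probes were 0 in each age's own fit. At 8 weeks 2 passed with both ages in one fit and 0 to 3 without a replicate (3 without replicate 1, 1 without replicate 2 and 0 without replicate 3). At 4 weeks 2 passed with both ages in one fit, 2 with all 4 arrays as separate values and 3 among named probes only. These were SND2, MRD1 (AT1G53480), AT3G50380 and AT3G01345, named here after their values were seen, and none was a reductase gene. Replicate numbers are shared by the ages, but deviations of same-numbered replicates correlated with r = -0.0198, 0.123 and 0.156 over probes, so the numbers were not taken as pairs. With the replicate block the difference between the ages was -0.38 for NIA1, 0.77 for NIA2 and 0.89 for NIR1, which equals the value without it by construction, since the design is balanced, and says nothing of stability. Leaving out a replicate moved this difference between -0.84 and -0.10 for NIA1, 0.55 and 1.00 for NIA2, and 0.63 and 1.09 for NIR1.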

Other observations

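Of the glutaredoxin family genes around AT4G15690, which lie side by side on chromosome 4, 5 had a named probe. The 4 in the study's list of called genes were higher at 8 weeks, AT4G15660 at 1.10 ± 0.73, AT4G15670 at 0.65 ± 0.35, AT4G15690 at 0.74 ± 0.41 and AT4G15700 at 0.77 ± 0.24 (SD, n = 3 each), and each was higher in all 3 replicates. AT4G15680, which is not in that list, was at -0.25 ± 0.43. At 4 weeks all 5 had means below 0, from -0.29 for AT4G15690 to -0.05 for AT4G15670, with standard deviations from 0.20 to 0.56. These genes are close paralogs, and the probes of one may read transcripts of another, so that their values are uncertain. They were chosen after their values had been seen.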
